A study of Homo sapiens with 2 samples.

Results

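The genes described here are 51 lysosomal genes of the human multiple myeloma (MM) cell line ARP1, chosen by gene symbol from the 57485 genes of the deposited tables. They are the 3 transcription factors TFEB, TFE3 and MITF, 6 lysosomal membrane proteins, 3 soluble proteins that are not enzymes, 24 hydrolases and 15 subunits or partners of the proton pump, the vacuolar ATPase. No measured value entered the choice, but it was made with earlier results of these data known. The RNA came from ARP1-SRD5A1-KD cells, which carry a lentiviral hairpin against the steroid reductase gene SRD5A1 under a promoter that doxycycline (Dox) switches on. There was 1 library labelled untreated and 1 labelled as treated with Dox, and both carried the hairpin vector. The genotype label of the latter reads SRD5A2, whereas its title and the series design read SRD5A1. The dose and time of Dox for these libraries are not given in the sources used here, nor whether the line is 1 clone. No library of cells with a control hairpin was analysed here, so Dox itself and the hairpin cannot be told apart.

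Neither condition was replicated, so no p-value is given and every difference below is a difference between these libraries, in which fewer cells of a kind and less RNA per cell cannot be told apart. The tables held 45918570 expected counts without Dox and 48728927 with Dox, so that the 3 counts that a count of 0 allows equal 0.0653 and 0.0616 CPM (counts per 1e6), respectively. SRD5A1, the targeted gene, was listed at 13.04 FPKM (fragments scaled to transcript length and library total) in the library labelled without Dox and at 25.88 FPKM in the library labelled with Dox. This log2 ratio of 0.98, with a 95% counting interval of 0.89 to 1.08, goes against the direction the label names, and the libraries are therefore called by their labels throughout. The plasma cell markers were all measured, with SDC1 at 344.56 and 236.58 FPKM and IRF4, a plasma cell transcription factor, at 409.73 and 513.92 FPKM. Of these 8 markers 2 were past 2-fold higher in the library labelled with Dox, where 17.0% of all genes compared below were. They were SLAMF7 at 15.73 and 41.75 FPKM and TNFRSF17 at 97.72 and 203.73 FPKM. On counts scaled by TMM factors TNFRSF17 lay within 2-fold, at a log2 ratio of 0.85. None of the 8 macrophage and monocyte markers reached 1 FPKM, their summed level was 0.53 and 1.03 FPKM, and CD163, TYROBP and AIF1 were at 0 counts in both libraries. Among 5 T cell markers, which summed to 2.24 and 3.09 FPKM, only TRAC reached 1 FPKM. Of 6 fibroblast and epithelial markers 3 did, their sum was 8.86 and 4.5 FPKM, and the keratin KRT18 was past 2-fold lower at 6.0 and 1.44 FPKM. These markers' part in the results was not tested.

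Lysosomes are acidic organelles in which hydrolases break down proteins, sugars, lipids and nucleic acids brought in by endocytosis and autophagy. The proton pump acidifies them: its membrane ring, the V0 sector, carries protons across the membrane, and its outer V1 sector burns ATP to drive it. TFEB, TFE3 and MITF are related transcription factors that the kinase complex mTORC1 holds in the cytoplasm when nutrients are plentiful. When they enter the nucleus they bind a palindromic element called CLEAR, an extended E-box, in promoters of lysosomal and autophagy genes. Plasma cells and myeloma cells secrete large amounts of immunoglobulin and rely on protein breakdown to survive this load.

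Matches to the E-box and to longer forms of CLEAR were sought in the RefSeq promoters of build GRCh38.p14. These run from 250 bases before to 50 bases after each start site. Promoters were listed for 37 of the 51 genes. The E-box CACGTG, which reads the same on both strands, was found in 11 of these 37 genes (29.7%), against 8.77% of 27305 genes with a listed promoter. A longer form, GTCACGTG or its reverse complement CACGTGAC, was found in 9 of 37 genes (24.3%), against 2.93% of all genes and 2.40% of all 35116 promoters. The palindrome TCACGTGA, which overlaps the longer form in many sites, was found in 7 of 37 genes (18.9%), against 1.18% of all genes. All genes here include those not expressed in these libraries. Among genes that reached 1 FPKM in at least 1 library and have a listed promoter, 477 had the longer form and 8495 did not. For the plain E-box these numbers were 1162 and 7810, and for the palindrome 212 and 8760. Each share thus lay between those of all listed genes and of the members. The short ATF4 motif TGATGNAA, read on both strands, was in none of the 37, against 4.46% of all genes. With 37 genes and so low a share, finding none does not set the members apart. A match is a description of letters, and binding was not measured. CLEAR is described in promoters of lysosomal genes, and the members were chosen as such genes. Their higher share is therefore not independent evidence about TFEB here. One site is printed below for each of the 9 genes with the longer form, because these are the members whose listed promoters carry this form. Each line gives 30 bases on the gene's own strand, 5′ to 3′, from GRCh38.p14, with the E-box and the GT or AC that extends it in capitals.
GAA: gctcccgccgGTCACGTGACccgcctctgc
MCOLN1: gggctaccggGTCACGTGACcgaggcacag
ATP6V1G1: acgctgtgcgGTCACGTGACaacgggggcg
ATP6V0B: ccggcgtgggGTCACGTGgtaccggcgcat
ATP6V0D1: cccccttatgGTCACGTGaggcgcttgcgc
GALNS: cgccccgcgaGTCACGTGgccgtccaggcc
CTSA: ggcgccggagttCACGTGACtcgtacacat
CTSD: gccggccgcgccCACGTGACcggtccgggt
LAMP1: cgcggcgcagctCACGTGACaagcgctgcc

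The GAA site is chr17:80101538-80101567 on the forward strand, and its E-box begins 31 bases before the start site. That of MCOLN1 is chr19:7522598-7522627, also forward, at 14 bases before the start. The ATP6V1G1 site lies forward at chr9:114587699-114587728, 58 bases before the start, and the ATP6V0B site forward at chr1:43974891-43974920, 57 bases before it. On the reverse strand, the ATP6V0D1 site is chr16:67481199-67481228, 59 bases before the start, and the GALNS site is chr16:88856962-88856991, 32 bases before it. CTSA has its site forward at chr20:45891298-45891327, 25 bases before the start, and CTSD on the reverse strand at chr11:1763957-1763986, 47 bases before it. The LAMP1 site is chr13:113297226-113297255 on the forward strand, and its E-box begins 1 base before the start. In all, the 11 genes with an E-box held 21 of them, 18 of the longer form, and each began between 1 and 192 bases before the start site. LAMP1 alone held 6, all of the longer form, and GAA held 2 that were extended on both sides, as in the line printed first. CD63 and NEU1 held 1 plain E-box each.

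Of the 51 genes, 49 reached 1 FPKM in at least 1 library and were compared, along with 14859 genes of the whole table. Before the log2 ratio of the library labelled with Dox over that labelled without Dox was taken, 0.1 FPKM was added to each value, so changes of low genes are understated. A gene was called when this ratio passed 2-fold. TFEB, CTSZ and ATP6V1D were past 2-fold higher in the library labelled with Dox, which is 3 of 49 where 17.0% of all genes were. CTSB and LGMN were past 2-fold lower, which is 2 of 49 where 6.41% of all genes were. The other 44 lay within 2-fold. In either direction 10.2% of the members were past 2-fold, against 23.4% of all genes compared and 17.8% of the 11459 protein-coding genes among them. The ratio of all genes was wider at low levels, and among protein-coding genes with at least 10 FPKM in 1 library 14.1% of 7706 were past 2-fold, against 10.9% of the 46 members at that level. At 20 FPKM or more the shares were 13.5% of 5547 protein-coding genes and 12.8% of 39 members. The median log2 ratio of the 49 members was -0.05, with an order-statistic interval of -0.13 to 0.16, and the median of all genes was 0.15. Of the 49 members 23 had a ratio above 0 and 26 below 0, and 18 lay above the median of all genes. When the counts were scaled by TMM factors the median of all genes moved to -0.04 and that of the members to -0.25, so signs near 0 depend on the scaling and are given as values here. On that scale 1 member was past 2-fold higher, TFEB, and 6 were lower (14.3%). The 6 were CD63, CTSA, CTSB, LGMN, GLA and ATP6V1F. Of all 14859 genes, 1822 were higher and 1354 lower, 21.4% in either direction. The share of called genes that were higher was 57.4% in place of 72.6%.

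**Figure D1:**
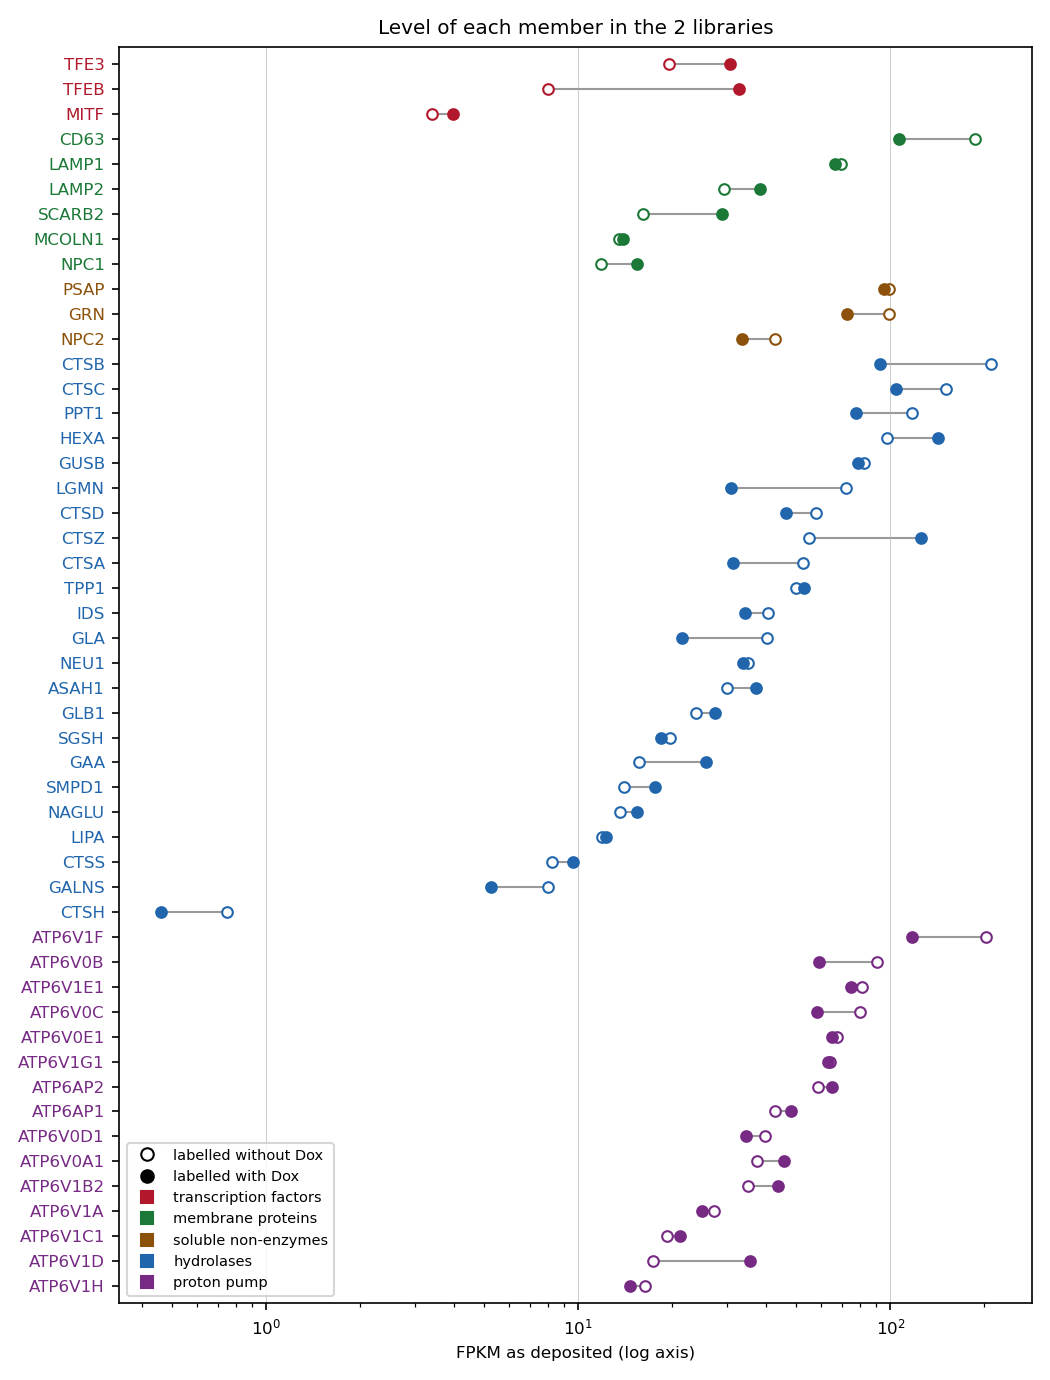
The deposited FPKM of each member in the library labelled without Dox (open circles) and with Dox (filled circles), on a log axis and coloured by group, with genes ordered by level without Dox within a group. TFEB moves from 7.97 to 32.79 FPKM, while CTSL, at 0 counts in both libraries, is not drawn.

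TFEB gave the largest ratio of all 51 genes. It was listed at 7.97 FPKM (656 counts) without Dox and at 32.79 FPKM (2551 counts) with Dox. It stood 48th of the 51 genes by level in the library labelled without Dox and 30th in the library labelled with Dox. The log2 ratio was 2.03 with a counting interval of 1.90 to 2.15, a 4.08-fold difference, and 95.4% of all genes compared had a lower ratio. From counts alone, with no correction for length, it was 1.87, since the transcript length the tables give TFEB was 2035 bases without and 1840 bases with Dox. The gene lies on the reverse strand at chr6:41683978-41736259 in GRCh38 (GENCODE release 29), and no exon of another gene overlaps it there. TFE3, which binds the same element, was at 19.53 and 30.6 FPKM, a log2 ratio of 0.65 (0.58 to 0.71). MITF, the factor of the pigment cell lineage, was the lowest of the 49 compared, at 3.4 and 3.97 FPKM. Its ratio of 0.22 (0.05 to 0.39) turned to -0.02 on counts scaled by DESeq2 size factors. All 3 ratios were thus above 0 on the FPKM scale, and the summed level of the 3 factors was 33.9 TPM (levels scaled to length, with the same total in each library) without and 79.0 TPM with Dox.

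None of the 6 membrane proteins was past 2-fold on the FPKM scale, where 23.4% of all genes compared were. With 6 genes, finding none does not set them apart. CD63, a tetraspanin of late endosomes and lysosomes, was the most abundant of them at 187.18 FPKM without Dox and 106.23 FPKM with Dox, a log2 ratio of -0.82 (-0.87 to -0.76). It passed 2-fold lower when the scaling used TMM or DESeq2 factors. SCARB2, the receptor that carries glucocerebrosidase to the lysosome, lay on the opposite side, at 16.09 and 28.89 FPKM and a log2 ratio of 0.84 (0.78 to 0.91). The major glycoproteins of the lysosomal membrane were closer to 0. LAMP1 was at 69.6 and 66.37 FPKM, a ratio of -0.07, and LAMP2 at 29.2 and 38.16 FPKM, a ratio of 0.38. The calcium channel MCOLN1 was at 13.47 and 13.94 FPKM, and its interval for the log2 ratio, -0.08 to 0.18, held 0. The promoters of LAMP1 and MCOLN1 are among those printed above. The levels of these 6 genes summed to 359.2 TPM without and 315.7 TPM with Dox, CD63 being the largest share of both sums.

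The cholesterol carriers of the lysosome gave ratios on opposite sides of 0. NPC1, the membrane protein that exports cholesterol, was at 11.86 and 15.46 FPKM, a log2 ratio of 0.38 (0.28 to 0.48). NPC2, the soluble protein that hands cholesterol to NPC1, was at 42.71 and 33.53 FPKM, a ratio of -0.35 (-0.51 to -0.19). The ratios differed by 0.73, and the intervals did not overlap. Exons of NPC1 overlap those of RMC1 on the other strand and exons of NPC2 those of ISCA2, and whether the counting used strand is not given in the sources used here. The other soluble proteins are PSAP, the precursor of the saposins that help enzymes reach lipids, at 98.91 and 95.15 FPKM, and GRN, the growth factor precursor progranulin, at 98.77 and 72.5 FPKM. Their log2 ratios were -0.06 and -0.45, so all 3 soluble proteins were lower in the library labelled with Dox on the FPKM scale, with PSAP at 0.04 on the TPM scale.

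**Figure D2:**
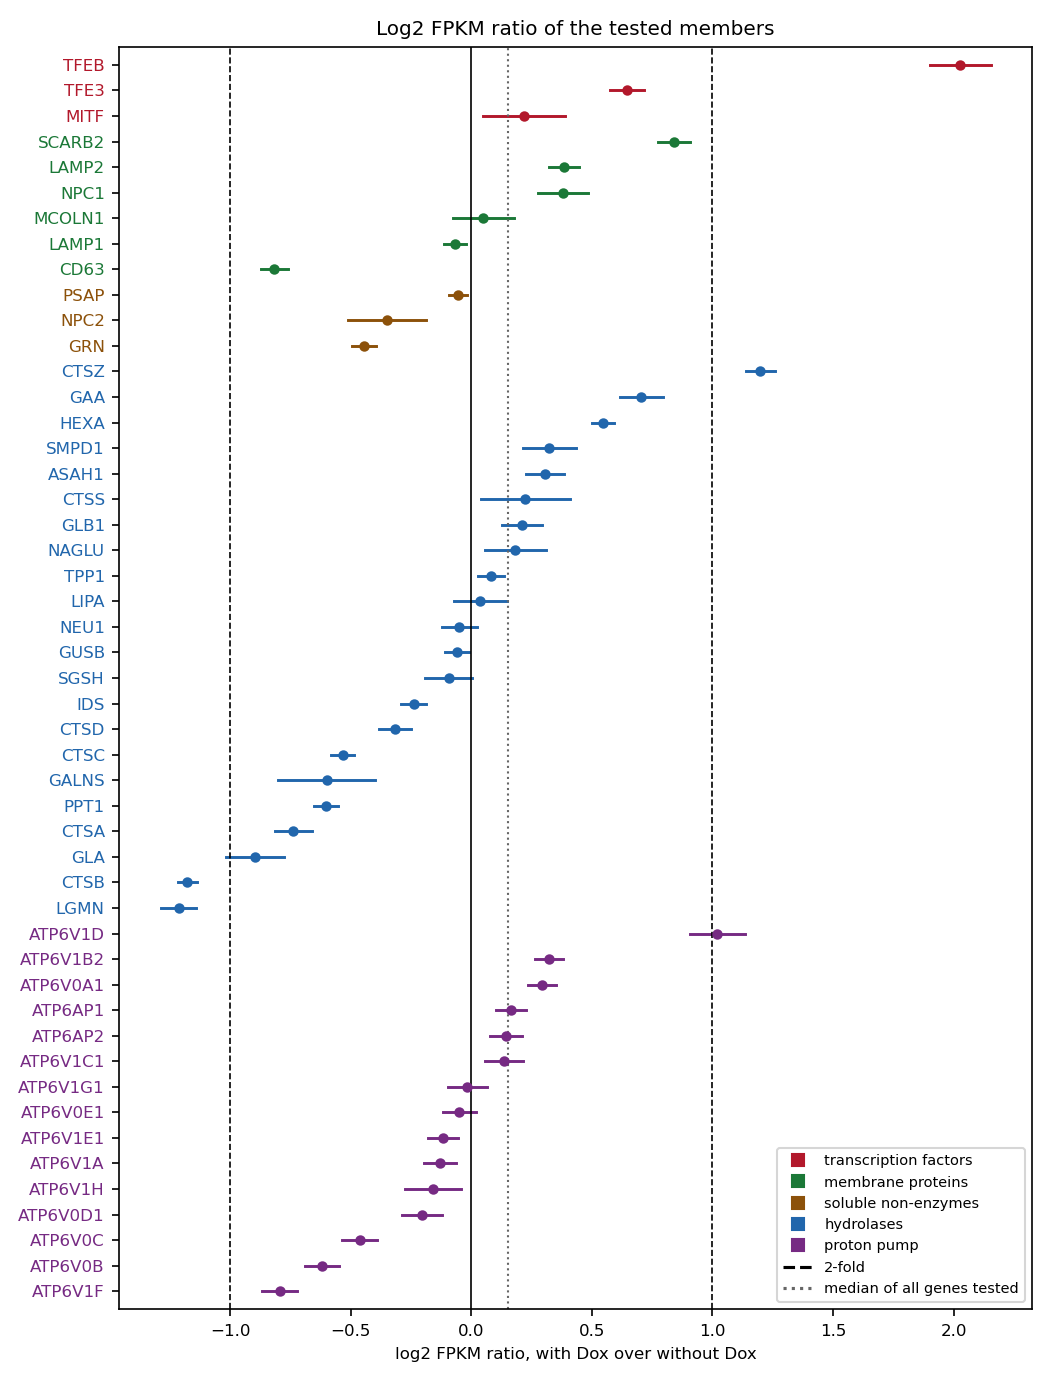
Log2 FPKM ratio, with Dox over without Dox, of the 49 members compared, by group, with 95% counting intervals (exact binomial). The dashed lines mark 2-fold and the dotted line the median of all genes compared, 0.15, and only TFEB, CTSZ and ATP6V1D lie beyond 2-fold on the higher side.

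Proteases spanned the widest range of ratios among the hydrolases, in both directions. Of 10 proteases 8 were compared, with 1 past 2-fold higher and 2 past 2-fold lower and a median log2 ratio of -0.43. Over all genes, 17.0% were past 2-fold higher and 6.41% lower. CTSB, the cysteine protease cathepsin B, was the most abundant of the 51 genes in the library labelled without Dox, at 209.21 FPKM (16530.5 counts), and was at 92.42 FPKM (7984 counts) with Dox. Its log2 ratio was -1.18 (-1.22 to -1.14), and it stood 7th by level in the library labelled with Dox. LGMN, legumain, the asparaginyl endopeptidase that also processes cathepsins, was at 71.89 FPKM (4844 counts) and 30.93 FPKM (2213 counts). Its ratio of -1.21 (-1.29 to -1.14) was the lowest of the 49, and it stood 13th of the 51 without Dox and 32nd with Dox. LGMN lies on the reverse strand at chr14:92703807-92748702, with no overlapping exon.

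CTSZ, the carboxypeptidase cathepsin Z, lay on the other side. It was listed at 54.74 FPKM (3122 counts) without Dox and 125.71 FPKM (7614 counts) with Dox, a log2 ratio of 1.20 (1.14 to 1.26) or 2.29-fold. It stood 19th of the 51 genes by level without Dox and 2nd with Dox, on the reverse strand at chr20:58995185-59007247 and with no overlapping exon. Its transcript length was nearly equal in both tables, and the ratio from counts alone was also 1.20. On counts scaled by DESeq2 size factors it was 0.98, just inside 2-fold. CTSC, which activates the serine proteases of immune cells, was at 150.66 and 104.02 FPKM, a ratio of -0.53 (-0.58 to -0.49). CTSA, a carboxypeptidase that shields beta-galactosidase and sialidase from breakdown, was at 52.41 and 31.38 FPKM, a ratio of -0.74 (-0.82 to -0.66). The enzymes it binds were both nearer 0, GLB1 at 0.21 (0.13 to 0.29) and NEU1 at -0.05 (-0.12 to 0.02). On counts scaled by TMM factors CTSA was just past 2-fold lower, at -1.004, with GLB1 at -0.12 and NEU1 at -0.26. The aspartic protease CTSD was at 57.62 and 46.21 FPKM, and the tripeptidyl peptidase TPP1 at 49.75 and 52.68 FPKM. CTSS, the cathepsin of antigen presentation, was low at 8.24 and 9.64 FPKM. CTSH was at 0.75 and 0.46 FPKM (51 and 37 counts), too low to be compared. CTSL, cathepsin L, had no count in either library. The proteases together summed to 718.9 TPM without and 579.0 TPM with Dox.

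The 7 glycosidases, which trim sugars from glycoproteins and glycolipids, all lay within 2-fold on the FPKM scale. GLA, the alpha-galactosidase that is deficient in Fabry disease, was the lowest of them in ratio, at 40.1 and 21.49 FPKM and -0.90 (-1.02 to -0.78). On counts scaled by TMM factors GLA was past 2-fold lower, at -1.18. GAA, the alpha-glucosidase that degrades glycogen and is deficient in Pompe disease, was the highest, at 15.68 and 25.6 FPKM and 0.70 (0.61 to 0.79). HEXA, the alpha subunit of beta-hexosaminidase, was at 97.23 and 142.13 FPKM, a ratio of 0.55 (0.50 to 0.59), which made it the most abundant member in the library labelled with Dox. Other genes overlap exons of HEXA on both strands. The beta-glucuronidase GUSB stayed near 0 at 82.26 and 78.92 FPKM. NAGLU, which degrades heparan sulfate, was at 13.61 and 15.46 FPKM, a ratio of 0.18. Its counts alone gave 0.52, since its transcript length was 1614 bases without and 1977 bases with Dox, and on FPKM scaled by TMM factors the ratio was -0.02. The glycosidases summed to 337.5 TPM without and 404.6 TPM with Dox, of which HEXA alone was 106.7 and 166.8 TPM.

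The sulfatases and the lipid enzymes also lay within 2-fold. The sulfatases GALNS, SGSH and IDS, which remove sulfate from glycosaminoglycans, gave log2 ratios of -0.60 (-0.80 to -0.40), -0.09 (-0.19 to 0.00) and -0.24 (-0.29 to -0.19). All 3 were below 0 on the FPKM scale, and SGSH was at 0.00 on the TPM scale. PPT1, which removes palmitate from proteins, was the most abundant of the lipid and acyl enzymes, at 117.53 and 77.43 FPKM and a ratio of -0.60 (-0.65 to -0.55). The acid sphingomyelinase SMPD1 acts on sphingomyelin and the acid ceramidase ASAH1 on ceramide. Their ratios were alike, at 0.32 (0.21 to 0.43) and 0.31 (0.23 to 0.39). LIPA, the acid lipase, was at 11.91 and 12.23 FPKM, with an interval for the ratio of -0.07 to 0.15. Over the 22 hydrolases compared the median log2 ratio was -0.05 (-0.60 to 0.22), with 10 above 0 and 12 below, and their summed level was 1321 TPM without and 1221 TPM with Dox.

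Of the 15 proton pump genes 1 was past 2-fold (6.67%), where 23.4% of all genes and 17.8% of protein-coding genes were. Of their ratios 6 were above 0 and 9 below, and the median was -0.05 (-0.20 to 0.16) on the FPKM scale and -0.26 on FPKM scaled by TMM factors. In the V0 sector, the large subunit ATP6V0A1 was at 37.23 and 45.66 FPKM, a log2 ratio of 0.29 (0.24 to 0.35). The ring subunits that carry the protons were lower in the library labelled with Dox: ATP6V0B was at 90.63 and 58.9 FPKM, a ratio of -0.62 (-0.69 to -0.55). ATP6V0C, the main ring subunit, was at 80.08 and 58.07 FPKM, a ratio of -0.46 (-0.54 to -0.39). ATP6V0D1, which couples the ring to the central stalk, gave -0.20, and ATP6V0E1 gave -0.05. Thus 4 of 5 V0 ratios were below 0 on this scale, with ATP6V0E1 at 0.05 on the TPM scale.

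In the V1 sector, the catalytic subunit ATP6V1A was at 27.28 and 24.92 FPKM and its partner in the ATPase ring, ATP6V1B2, at 34.88 and 43.61 FPKM. Their log2 ratios were -0.13 (-0.20 to -0.06) and 0.32 (0.26 to 0.38). On counts scaled by TMM factors they were -0.27 and -0.005. ATP6V1F, a small subunit of the central stalk, was the 2nd most abundant of the 51 genes without Dox, at 202.86 FPKM. It was at 116.85 FPKM with Dox, a ratio of -0.80 (-0.87 to -0.72). On counts scaled by TMM factors it was just past 2-fold lower, at -1.01. ATP6V1D, the other stalk subunit, was at 17.38 FPKM (942 counts) without Dox and 35.36 FPKM (1705 counts) with Dox, a ratio of 1.02 (0.90 to 1.14). Partners in the stalk thus lay at the upper and lower end of the pump genes. The call for ATP6V1D is narrow: the ratio was 0.98 with a pseudocount of 1 FPKM, 0.81 on FPKM scaled by TMM factors and 0.77 from counts alone. The transcript length in the tables was 1424 bases without and 1235 bases with Dox, and counts scaled by DESeq2 size factors, which leave length out, gave 0.55. Exons of ATP6V1D, on the reverse strand at chr14:67294371-67360265, also overlap those of EIF2S1 on the other strand, and the part of that overlap in the value was not tested. The remaining V1 genes ATP6V1C1, ATP6V1E1, ATP6V1G1 and ATP6V1H, subunits of the outer stalks and of a regulatory cap, lay between -0.16 and 0.14. The accessory proteins ATP6AP1 and ATP6AP2 were at 0.16 and 0.14 on the FPKM scale and -0.04 and -0.07 on FPKM scaled by TMM factors. The V1 genes summed to 507.7 TPM without and 462.5 TPM with Dox, and the V0 genes to 345.7 and 307.7 TPM.

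Across the 49 members the genes with higher mean level tended to have lower ratios, with a Spearman correlation of -0.44 given as a description. Over all 14859 genes, which were measured in the same libraries, it was -0.27. The members just inside 2-fold were GLA at -0.90, SCARB2 at 0.84 and CD63 at -0.82, and those just outside it were ATP6V1D at 1.02, CTSB at -1.18 and CTSZ at 1.20. At a looser size of 1.5-fold, 6 members were higher and 9 were lower (30.6%). Of all 14859 genes, 4358 were higher and 2288 lower, 44.7% in either direction. TFE3, SCARB2 and GAA joined the higher genes, and CD63, CTSA, GLA, GALNS, PPT1, ATP6V0B and ATP6V1F joined the lower ones. The median width on each side of the counting intervals was 0.07, from 0.04 to 0.20, and 43 of 49 intervals left out 0, but these intervals cover counting error only.

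**Figure D3:**
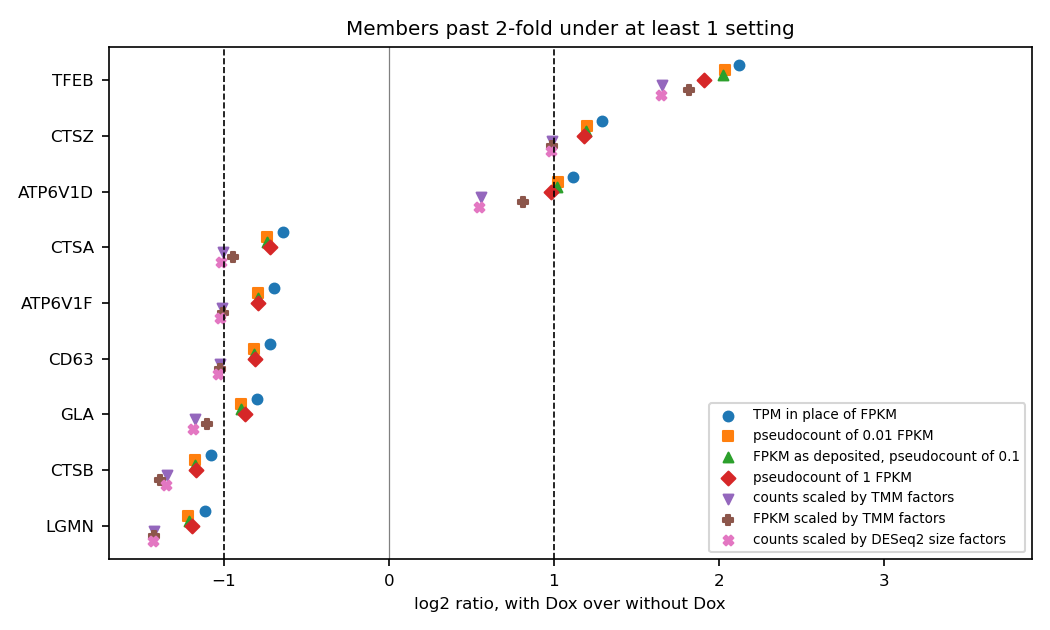
Log2 ratio, with Dox over without Dox, of the 9 members past 2-fold (dashed lines) under at least 1 way of scaling, with 1 symbol for each scaling or pseudocount. TFEB (1.65 to 2.13), CTSB (-1.39 to -1.08) and LGMN (-1.43 to -1.12) stay beyond 2-fold under each setting drawn, and the other 6 cross a line.

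The 9 members with the longer E-box in their promoter had a median log2 ratio of -0.20, from -0.74 for CTSA to 0.70 for GAA, and none of them was past 2-fold. The 26 compared members with a promoter and no such form had a median of 0.06, and 3 were past 2-fold higher, namely TFEB, CTSZ and ATP6V1D. Among the genes compared that have a listed promoter, the 477 with the longer form had a median of 0.08 and 13.8% were past 2-fold, while the 8495 without it had a median of 0.07 and 17.0% past 2-fold. For the palindrome TCACGTGA the members' medians were closer, at -0.07 for the 7 with it and -0.01 for the 28 without it, and for the plain E-box they were -0.20 for 11 and 0.11 for 24. GAA and CTSA, whose sites are printed above, thus lay at opposite ends of the range. The promoters of TFEB, CTSZ and ATP6V1D held none of the E-box forms in this window, and those of CTSB and LGMN were not among the listed ones.

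**Figure D4:**
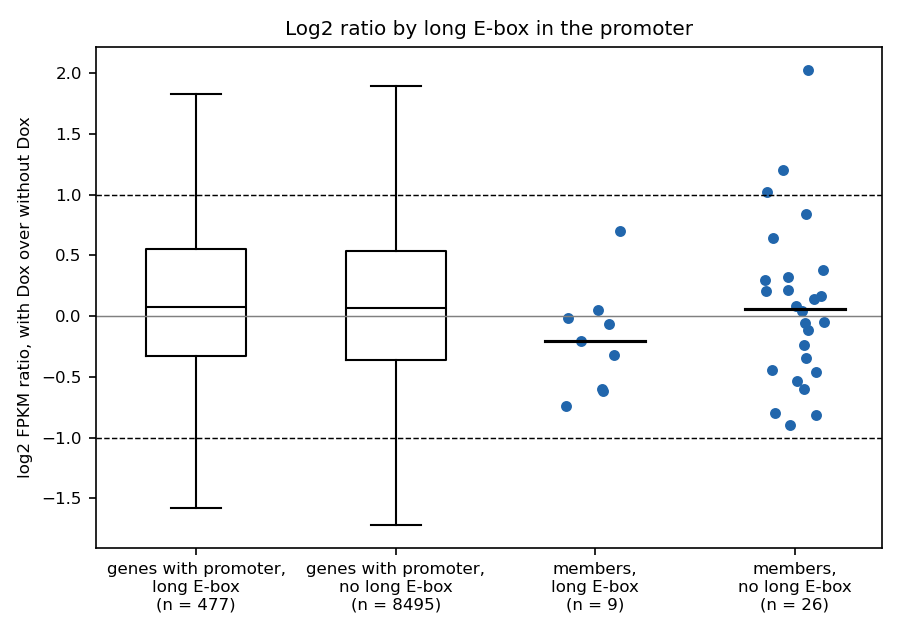
Log2 FPKM ratio, with Dox over without Dox, for genes with and without GTCACGTG or CACGTGAC in the promoter, as boxes for all genes compared that have a listed promoter (line at the median, box over the quartiles, whiskers to the last gene within 1.5 times the box) and as points with a median line for members. Medians are 0.08 and 0.07 for these genes and -0.20 and 0.06 for members, and the 9 members with the form lie inside the dashed 2-fold lines.

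The 5 further lists of lysosomal genes, 82 genes in all, show the surroundings of the members. Of their 75 genes compared, 8 were past 2-fold higher and 6 lower (18.7%), against 23.4% of all genes and 17.8% of protein-coding genes. Their median log2 ratio was 0.12 on the FPKM scale. On counts scaled by TMM factors 7 were higher and 9 lower, so the balance turned with the scaling. Among the 10 other pump subunits, which are alternative forms, 6 were compared and 3 were higher, where 17.0% of all genes were. ATP6V1E2 was at 9.47 and 25.65 FPKM, a ratio of 1.43, and ATP6V1G2 at 3.58 and 9.94 FPKM, a ratio of 1.45, beside -0.12 and -0.02 for the common forms ATP6V1E1 and ATP6V1G1. In other pairs the alternative form had the lower ratio, with ATP6V1C2 at -0.67 beside 0.14 for ATP6V1C1 and ATP6V0E2 at -0.45 beside -0.05 for ATP6V0E1. The third was TCIRG1, the osteoclast form of the large V0 subunit, at 1.23 and 4.26 FPKM, named here after its value was seen. Of 23 other hydrolases compared, 2 were higher and 3 lower (21.7%), where 17.0% and 6.41% of all genes were. DNASE2, which degrades DNA in lysosomes, was at 18.08 and 66.14 FPKM, a ratio of 1.87, and AGA, which cleaves glycosylated asparagine, at 12.41 and 33.51 FPKM, a ratio of 1.43. HYAL2, a hyaluronidase, was at 10.6 and 3.51 FPKM, the phospholipase PLA2G15 at 7.06 and 3.01 FPKM and the peptidase DPP7 at 76.53 and 36.6 FPKM. DPP7 lay within 2-fold, at -0.97, on the TPM scale.

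Of 19 other lysosomal membrane proteins compared, 2 were higher and 2 lower (21.1%), against 23.4% of all genes and 17.8% of protein-coding genes. Among the higher ones was the ion channel TMEM175 at 28.17 and 64.67 FPKM, a log2 ratio of 1.20 that was 0.80 on counts scaled by TMM factors. In the mannose 6-phosphate route that delivers new hydrolases, 1 of 9 genes (11.1%) was past 2-fold, against 23.4% of all genes. That gene was the sorting adaptor GGA2, at 86.28 and 39.78 FPKM and a ratio of -1.12. In the list of genes that control TFEB at the lysosome, such as the Rag GTPases, folliculin and calcineurin, 18 genes were compared. Their median was 0.31 on the FPKM scale. Of these 18 genes 1 (5.56%) was past 2-fold, against 23.4% of all genes, a difference that was not tested. It was RRAGC, a Rag GTPase that recruits TFEB and mTORC1 to the lysosome, at 8.45 and 17.32 FPKM, a ratio of 1.03 (0.92 to 1.14). It lay within 2-fold with a pseudocount of 1 FPKM, at 0.955, and on counts scaled by TMM factors, at 0.81. By the GO term lysosome that the tables carry, 503 genes other than the members were compared. Their median was 0.03. Of these, 53 were higher and 44 lower (19.3%), against 23.4% of all genes and 17.8% of protein-coding genes. That balance also turned, to 43 higher and 58 lower, on counts scaled by TMM factors.

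**Figure D5:**
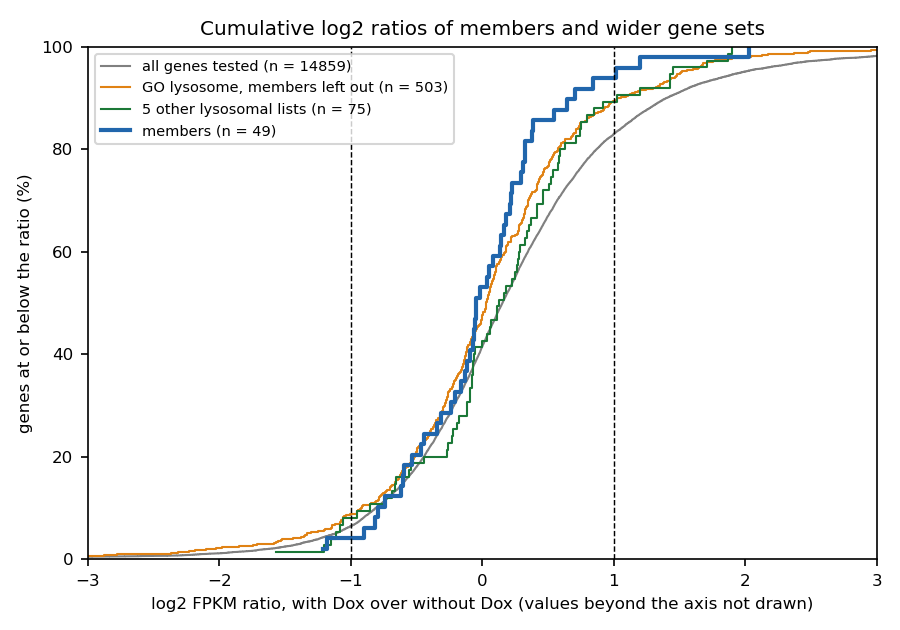
Cumulative share of genes (%) at or below each log2 FPKM ratio, with Dox over without Dox, for the 49 members, 75 genes of 5 other lysosomal lists, 503 other genes of the GO term lysosome and all 14859 genes compared. The curve of the members rises most steeply between the dashed 2-fold lines, where 44 of 49 lie. The sets are not matched for level. At 20 FPKM or more, 12.8% of 39 members and 13.5% of 5547 protein-coding genes were past 2-fold.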

How the data were processed

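The submitters' processing notes name HISAT2 2.1.0, StringTie 1.3.4d, Bowtie 0.12.2 and the build hg19 without their roles, while 202888 of the 204675 listed transcripts are in GENCODE release 29 (GRCh38), which gave the coordinates here. The tool that wrote the values is not given in the sources used here. Reads of poly(A) RNA were paired and 150 bases long. The authors deposited expected counts, which share reads among transcripts, so that 33.8% and 33.6% of counts above 0 were not whole. The authors deposited FPKM and TPM values, which divide by an effective length that differs between the libraries, and this moves ratios of genes whose transcript mix differs. Members were matched by gene symbol, and 18 of them had counts that were not whole in at least 1 library. In GENCODE release 29, 10 members have exons that overlap another gene on the same strand and 18 on the other strand. Only 28 of the 51 have no such overlap, and overlaps are named above for some members only.

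Members and lists were chosen with earlier results of these data known. The log2 ratio used a pseudocount of 0.1 FPKM, genes with at least 1 FPKM in 1 library and a size rule of 2-fold. For single genes, 95% intervals were taken from the counts by the exact binomial method of Clopper and Pearson and placed on the FPKM scale. Members were all open to naming, and from each other list at most 6 genes past 2-fold with at least 5 FPKM were named by rule. Outside this rule the pump subunits TCIRG1, ATP6V1C2 and ATP6V0E2 were also named. So were the cell type markers SDC1, IRF4, TRAC, CD163, TYROBP and AIF1. With 1 library per group the spread between replicates cannot be estimated, so no test was run, although the study's methods name edgeR. Alternatives were pseudocounts of 1 and 0.01, no filter, a filter of 5 FPKM, TPM, a size of 1.5-fold, and counts scaled by TMM (edgeR 4.0.16, factors 0.930 and 1.07) or DESeq2 1.42.0 size factors in R 4.3.3. FPKM scaled by TMM factors was added after seeing the data. The ratio and interval steps were tested on simulated Poisson counts, with equal lengths in both libraries and no spread between replicates. This checks the arithmetic only. Python 3.11.15, pandas 2.3.3, numpy 2.4.6, scipy 1.17.1 and matplotlib 3.10.9 were used. RefSeq promoters (GRCh38.p14) were matched by symbol, and in 20 of 22 members on the reverse strand their last 30 bases were found in the gene's own GENCODE transcripts.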

Additional observations from a re-analysis of the deposited data

How the results depend on the processing

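No paired analysis was possible because each condition has only 1 library. Over the alternatives, 31 of 49 members kept the sign of their log2 ratio and 18 did not, and TFEB, CTSB and LGMN were past 2-fold in each. The scaling shifted all genes, from a median of 0.15 to -0.04 on counts scaled by TMM factors, -0.05 on counts scaled by DESeq2 size factors and -0.05 on FPKM scaled by TMM factors. The share of called genes that were higher was 72.6% on FPKM, 78.4% on TPM, and 57.4%, 56.4% and 56.0% on these 3 scales. On counts scaled by TMM factors 1 member was higher and 6 lower, and the median log2 ratio was -0.25 for members, -0.57 for soluble proteins, -0.26 for the pump, -0.068 for the 5 other lists and -0.15 for the GO term lysosome. With DESeq2 size factors 1 member was higher and 6 lower, and these medians were -0.26, -0.59, -0.27, -0.079 and -0.17. On FPKM scaled by TMM factors, an alternative chosen after seeing the data, 1 was higher and 5 lower, and they were -0.26, -0.56, -0.26, -0.079 and -0.18. On these 3 scales the other lists had 7 and 9, 7 and 9, and 6 and 8 genes higher and lower, and the GO term 43 and 58, 43 and 59, and 42 and 57. On TPM 63 genes of the GO term were higher and 35 lower, and its median was 0.13. At 5 FPKM or more, where fewer genes were compared, 32 genes of the GO term were higher and 32 lower, beside 17.7% of all genes past 2-fold. At 1.5-fold 6 members were higher and 9 lower, with 16 and 12 in the other lists and 98 and 88 in the GO term. With a pseudocount of 1, ATP6V1D was no longer past 2-fold, and 15.2% of all genes were. The motif window before the start site only gave the same counts of members for each motif. The counting intervals do not cover the spread between replicates, which could not be measured.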
